A study of Caenorhabditis elegans with 6 samples.

Results

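The genes described here encode proteins of the spliceosome and RNA-binding proteins that choose between splice sites in Caenorhabditis elegans. The list names 36 of them: the Sm proteins, the prp and rnp genes, the factors that bind the branch site and the end of the intron, and regulators of alternative splicing. The gene tdp-1 and the SR protein genes were left out. Of the 36, 35 had a probe set annotated to a single gene, out of 17118 genes so measured, and prp-19, a ubiquitin ligase of the spliceosome, was not analysed here. Where a gene had several probe sets, the brightest on average was used, a choice that does not depend on genotype.

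RNA came from whole worms of mixed stages with 2 genotypes and 3 arrays each. The mutant worms were outcrossed and carried tdp-1(ok803), a single loss-of-function allele present in every cell, and the others were wild-type N2. The series calls the samples biological replicates. Arrays were Affymetrix C. elegans genome arrays, on which a probe set gives 1 log2 value near the 3' end of a transcript. Such a value reports abundance and not which exons were joined.

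The spliceosome removes introns from pre-messenger RNA. Most of its small nuclear ribonucleoproteins (snRNPs) share a ring of Sm proteins around their RNA, and prp proteins build, remodel and dismantle the assembled machine. Regulators such as Fox-1, CELF, ELAV and muscleblind family proteins bind near alternative exons, often in neurons or muscle. TDP-1 is the worm orthologue of TDP-43, an RNA-binding protein of the hnRNP class that is known to act in splicing.

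The targeted gene was checked first. The brighter tdp-1 probe set (F44G4.4) read 4.77, 4.78 and 5.47 on the 3 tdp-1(ok803) arrays, against 8.86, 9.22 and 8.85 on the wild-type arrays. No mutant array came near any wild-type one, and the signal was lower by 3.97 in log2 units, with an SE of 0.21 (limma adjusted p = 0.000815). The other tdp-1 probe set differed by -3.99 ± 0.26 (limma adjusted p = 0.00217).

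None of the 35 splicing factor genes changed in tdp-1(ok803) worms at an adjusted p under 0.05 in limma, with adjustment over all 22548 probe sets. At that threshold 0.0577% of all probe sets and 0.0643% of all genes were called, so a list of 35 would hold few calls at the background rate. The smallest adjusted p among the members was 0.638, for snr-5. A single member, again snr-5, had an unadjusted p under 0.05 (2.86% of members, against 7.24% of all genes). Differences, given throughout as tdp-1(ok803) minus wild type on the log2 scale, ran from -0.38 for prp-17 to 0.32 for snr-5. Their median was 0.024, with 18 genes higher and 17 lower in the mutant, while the median over all 17118 genes was 0.013. The array means of the list, each gene centred on its own mean, were -0.02, 0.073 and -0.07 in the mutant and 0.049, -0.0075 and -0.02 in wild type, and these ranges overlapped.

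The data also bound how large a difference in signal could have been missed. For all 35 genes, each read on its brightest probe set, the 95% interval of the difference from limma lay within 2-fold in either direction. It did so for 94.3% of all genes. For 27 of the 35 (77.1%) it lay within 1.5-fold, against 70.4% of all genes. The interval that reached lowest was that of prp-17, from -0.89 to 0.12, and the one that reached highest was that of snr-1, from -0.18 to 0.67. The median SE was 0.14. In 23 of the 35 genes the SD within at least 1 genotype exceeded the size of the difference between genotypes. Mean signals of 6 of the 35 genes, from 4.55 for sfa-1 to 5.21 for mbl-1, lay below the median of all probe sets. The brighter tdp-1 set read 4.77 to 5.47 in the mutant. Whether those 6 genes were above background was not assessed, so their intervals bound the signal and not the transcript.

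**Figure D1:**
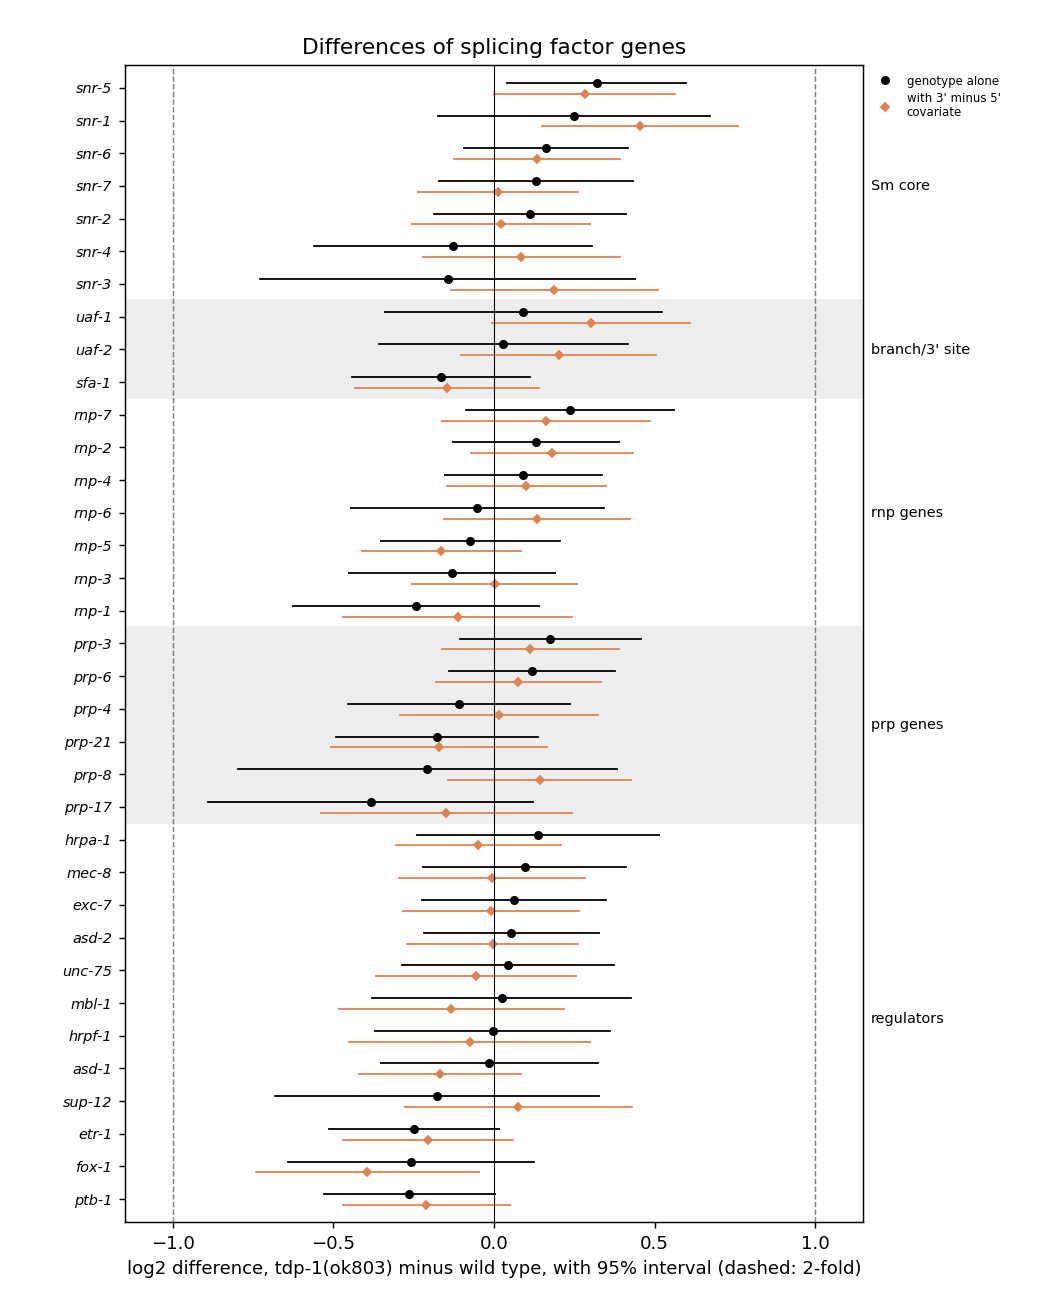
Log2 difference, tdp-1(ok803) minus wild type, of each of the 35 genes by role, with its 95% interval from limma, from genotype alone (black circles) and with the 3' minus 5' control difference of the arrays as a covariate (orange diamonds). Dashed lines mark 2-fold, and no interval of either fit reaches them.

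In 6 genes the genotypes did not overlap on any array, which is 17.1% of the list against 12.1% of all genes. Mutant values were the higher ones in 4 genes, snr-5, snr-6, rnp-4 and prp-6 (11.4%, against 7.41% of all genes), and the lower ones in 2, etr-1 and ptb-1 (5.71%, against 4.7%). Each of the 6 had p = 0.1 in an exact two-sided permutation test, and 3 arrays against 3 cannot give a smaller p. With 1 array left out, fewer values are there to overlap, and the share of all genes without overlap rose in each case. Without mutant replicate 1 there were 10 such members (28.6%, against 18.7% of all genes), without mutant replicate 2 there were 13 (37.1%, against 24.7%), and without mutant replicate 3 there were 7 (20%, against 18.2%). Without wild-type replicate 1 there were 6 (17.1%, against 17.7%), without wild-type replicate 2 there were 14 (40%, against 33.4%), and without wild-type replicate 3 there were 12 (34.3%, against 20%). The count at an unadjusted p under 0.05 was 2 without wild-type replicate 2, and 0 without wild-type replicate 3 or without mutant replicate 3. The share of all genes at that threshold is not given for these fits, so the counts have no background beside them.

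**Figure D2:**
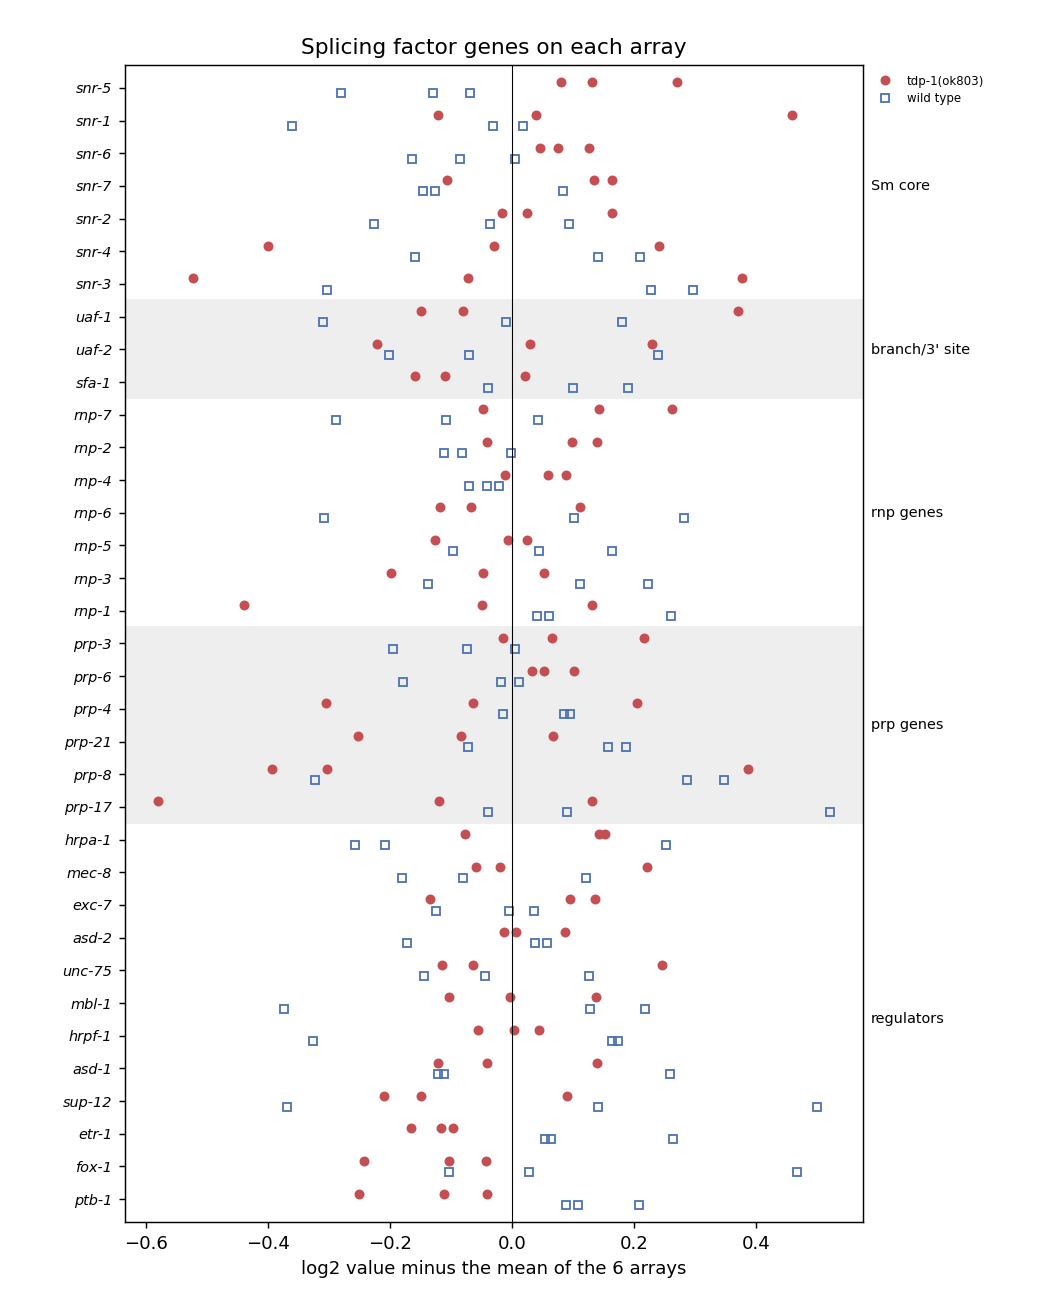
Log2 value of each of the 35 genes on each array minus the gene's mean over the 6 arrays, with tdp-1(ok803) as filled circles above wild type as open squares in every row. The genotypes lie apart in snr-5, snr-6, rnp-4, prp-6, etr-1 and ptb-1, and overlap in the other 29 genes.

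The Sm proteins form the ring on which most spliceosomal snRNPs are built. Their 7 genes had a median difference of 0.13, with 5 higher and 2 lower in the mutant and 0 called. The gene snr-5, which encodes SmF, read 11.99, 12.04 and 12.18 in tdp-1(ok803), against 11.84, 11.78 and 11.63 in wild type. Every mutant value lay above every wild-type value. The difference was 0.32 ± 0.12 (SE, 95% interval 0.042 to 0.60, limma adjusted p = 0.638), and 0.28 with the covariate described below. For snr-6, which encodes SmE, the mutant values were 11.002, 11.049 and 10.968 and the wild-type values 10.838, 10.935 and 10.760. These also lay apart, by a smaller 0.16 ± 0.11 (limma adjusted p = 0.856).

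The gene snr-1 read 10.64, 11.22 and 10.80 in the mutant, against 10.73, 10.40 and 10.78 in wild type. Mutant replicate 2 was the high array, mutant replicate 3 was just above the highest wild-type array, and mutant replicate 1 lay among the wild-type ones (difference 0.25 ± 0.18, limma adjusted p = 0.864). The SmB gene snr-2, whose mean signal was the highest on the list, read 11.94, 11.98 and 12.12 in the mutant and 11.92, 12.05 and 11.73 in wild type, with overlapping ranges and a difference of 0.11 ± 0.13. The remaining Sm genes differed by 0.13 (snr-7), -0.13 (snr-4) and -0.14 (snr-3), each with an interval across 0.

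Recognition of the branch site and of the end of the intron rests on a branch site binding protein, encoded by sfa-1, and on the large and small subunits of U2AF, encoded by uaf-1 and uaf-2. The 3 genes differed by -0.17, 0.091 and 0.030, and none was called. The sfa-1 probe set had the lowest mean signal on the list, with 4.39, 4.57 and 4.44 in tdp-1(ok803) and 4.74, 4.65 and 4.51 in wild type. The genotypes overlapped, since mutant replicate 2 was above wild-type replicate 3. Its mean lay below the median of all probe sets, and whether it was above background was not assessed.

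The rnp genes encode RNA-binding proteins of several complexes. Of the 7, 3 were higher and 4 lower in the mutant, with a median of -0.05 and 0 called. The exon junction complex gene rnp-4, the orthologue of Y14, read 9.17, 9.27 and 9.24 in the mutant, against 9.16, 9.14 and 9.11 in wild type. The genotypes lay apart by a narrow margin (difference 0.092 ± 0.11, limma adjusted p = 0.913), and a second rnp-4 probe set differed by -0.37 ± 0.27 with overlapping ranges. The U1 snRNP gene rnp-7 differed by 0.24 and rnp-1 by -0.24, the largest differences of the group in either direction on the brightest sets. A second rnp-7 probe set differed by -0.34 ± 0.29 with overlapping ranges. The neighbouring genes rnp-2 and rnp-3, which encode related proteins of the U1 and U2 snRNPs and have 0 protein-coding genes between them in the WBcel235 gene table, differed by 0.13 and -0.13. The splicing activator gene rnp-5, the orthologue of RNPS1, differed by -0.07, and rnp-6, the orthologue of PUF60, by -0.05.

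The prp genes act at successive steps of spliceosome assembly. Of the 6 measured, 2 were higher and 4 lower in the mutant, with a median of -0.14 and 0 called. The gene prp-6, whose product belongs to the particle that brings U4, U5 and U6 into the spliceosome, read 8.07, 8.09 and 8.14 in tdp-1(ok803), against 8.02, 8.05 and 7.86 in wild type. The genotypes lay apart by 0.12 ± 0.11 (limma adjusted p = 0.889). The lowest difference on the whole list was that of prp-17, which acts in the second catalytic step. It read 7.80, 8.05 and 7.34 in the mutant, against 8.01, 7.88 and 8.44 in wild type. Mutant replicate 3 was low and wild-type replicate 3 high, with mutant replicate 2 above 2 of the wild-type values (difference -0.38 ± 0.22, limma adjusted p = 0.821). The U5 protein gene prp-8 differed by -0.21, prp-21 of the U2 snRNP by -0.18, and the U4/U6 genes prp-3 and prp-4 by 0.18 and -0.11.

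Of the 12 regulators of alternative splicing 6 were higher and 6 lower in the mutant, with a median of 0.0097 and 0 called. With the 3' minus 5' covariate described below 11 of the 12 were lower, again with 0 called. In that fit 43.9% of all genes were higher. Some of the 11 differed very little, with -0.0046 for asd-2, -0.0056 for mec-8 and -0.0095 for exc-7. The polypyrimidine tract binding protein gene ptb-1 read 5.06, 5.13 and 4.92 in tdp-1(ok803), against 5.38, 5.26 and 5.28 in wild type. The highest mutant array was below the lowest wild-type one (difference -0.26 ± 0.11, limma adjusted p = 0.72), at a signal below the median of all probe sets. The CELF family gene etr-1, which is known for its role in muscle, read 9.075, 9.048 and 9.004 in the mutant and 9.228, 9.218 and 9.428 in wild type on its brightest probe set. These values also lay apart (difference -0.25 ± 0.11, limma adjusted p = 0.748).

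Among regulators known from neurons, the CELF family gene unc-75 differed by 0.043, the ELAV family gene exc-7 by 0.062, and mec-8, known from touch receptor neurons, by 0.095. The muscleblind gene mbl-1 differed by 0.024. The Fox-1 family genes fox-1 and asd-1 differed by -0.26 and -0.01, and on their dimmer probe sets by 0.0071 and -0.29. The gene sup-12, which acts with them in muscle, differed by -0.18, and the STAR family gene asd-2 by 0.054. The hnRNP genes hrpa-1 and hrpf-1 differed by 0.14 and -0.0045. The intervals of these 10 genes all crossed 0, as did those of ptb-1 (-0.53 to 0.0019) and etr-1 (-0.52 to 0.017). The mean signals of asd-2, fox-1, unc-75, ptb-1 and mbl-1 lay below the median of all probe sets, as did that of sfa-1, so 6 of the 35 genes were read at low signal.

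**Figure D3:**
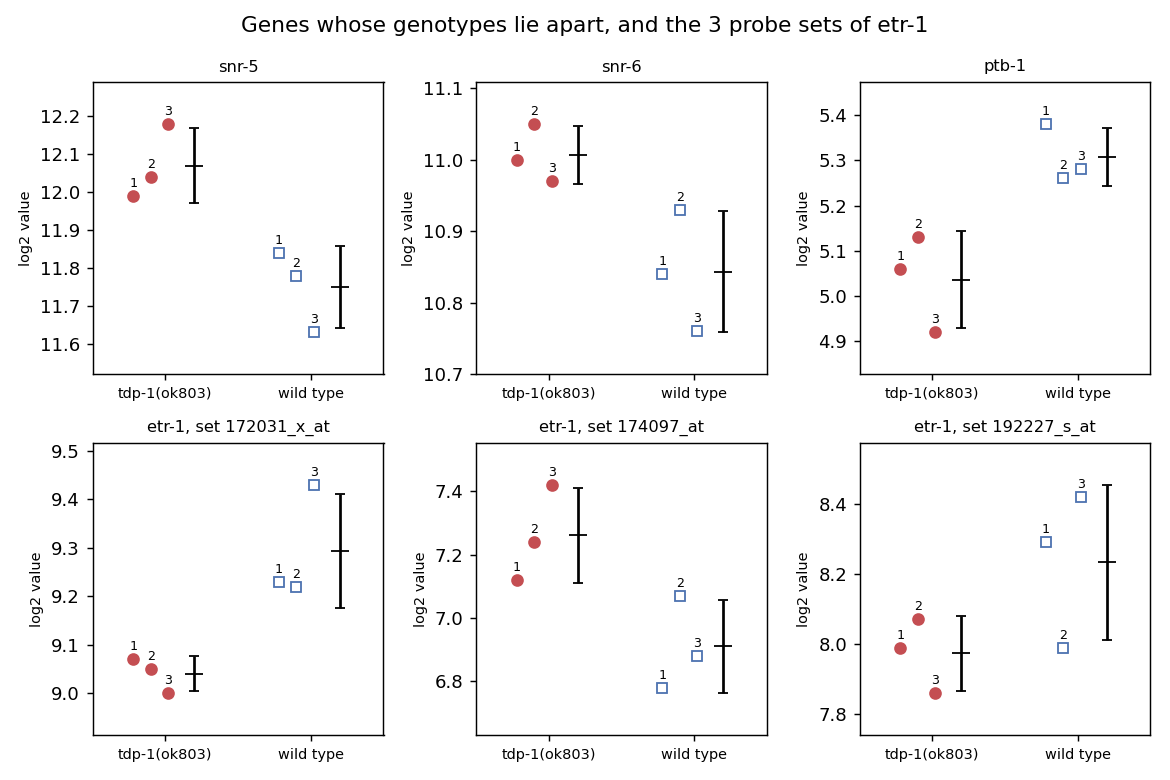
Log2 values of snr-5, snr-6, ptb-1 and the 3 probe sets of etr-1 on the tdp-1(ok803) arrays (filled circles, left) and the wild-type arrays (open squares, right), with replicate numbers, and with the mean and SD beside them (n = 3 each). The axes differ between panels and do not start at 0. In etr-1 the mutant values are the lower ones on the brightest set, near 9, and the higher ones on the dimmest set, near 7.

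Several genes had more than 1 probe set. The sets that were not chosen, each dimmer on average than the chosen one, gave a second reading of the gene. There were 15 other probe sets, in 12 of the genes, and limma called 0 of them (smallest adjusted p = 0.646). An unadjusted p under 0.05 was found for 1. They differed by -0.40 to 0.48, 12 of the 15 being lower in the mutant, and the interval of 12 lay within 2-fold. Those of hrpa-1, snr-2 and rnp-7 reached down to -1.06, -1.09 and -1.01, so the 2-fold bound above covers the brightest sets and not these. The 3 probe sets of etr-1 did not all differ in the same direction. On the dimmest, the mutant values were 7.12, 7.24 and 7.42, against 6.78, 7.07 and 6.88 in wild type, all mutant values above all wild-type values and opposite to the brightest set (difference 0.35 ± 0.14, limma adjusted p = 0.646). The remaining set read 7.99, 8.07 and 7.86 in the mutant and 8.29, 7.99 and 8.42 in wild type, with overlapping ranges and a difference of -0.26 ± 0.14.

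Whether 2 probe sets of a gene differed in their response was tested with limma on the within-array difference between each other probe set and the gene's brightest one, over all 3648 such pairs, a comparison chosen after the values were seen. Of the 15 pairs in splicing factor genes 0 were called, and 0% of all pairs were. For etr-1, the dimmest set minus the brightest was -1.96, -1.80 and -1.58 in the mutant, against -2.45, -2.15 and -2.55 in wild type. The genotypes lay apart by 0.60 ± 0.20, with an unadjusted limma p of 0.0162 and an adjusted p of 0.715 (exact permutation p = 0.1). It was the 1 pair of 15 with an unadjusted p under 0.05 (6.67%, against 5.48% of all pairs). Genotypes lay apart in 2 of the 15 pairs, in etr-1 and exc-7 (13.3%, against 10.8% of all pairs). For exc-7 the dimmer set minus the brighter one was -2.44, -2.29 and -2.41 in the mutant and -2.10, -2.12 and -2.23 in wild type (difference -0.23 ± 0.17, limma adjusted p = 0.715). Which exons these probe sets cover, and whether they also bind other transcripts, was not analysed here.

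The arrays also differed in the 3' minus 5' difference of the actin and Gapdh control probe sets, which grows as labelling falls short of the 5' end. It was 4.01, 3.09 and 4.31 on the mutant arrays and 2.69, 4.12 and 2.52 on the wild-type arrays, so the genotypes overlapped. With this difference as a covariate, limma again called 0 of the 35 genes (smallest adjusted p = 0.298), and the median difference was 0.012. In 13 of the 35 genes the difference had the opposite sign with the covariate, and none was called in either fit. The counts by role moved with it: 7 of 7 Sm genes, 2 of 3 branch and intron end genes, 5 of 7 rnp genes, 4 of 6 prp genes and 1 of 12 regulators were then higher in the mutant. Over all genes 43.9% were higher with the covariate and 53.0% without it. The largest difference was then that of snr-1, at 0.45 ± 0.13 (limma adjusted p = 0.298). That of fox-1 was -0.39 ± 0.15 (limma adjusted p = 0.409), and that of snr-5 was 0.28 ± 0.12 (limma adjusted p = 0.467). The first 2 of these had an unadjusted p under 0.05, as had 1865 of all 17118 genes in that fit.

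At fixed genotype, the slope of a member on the 3' minus 5' difference ran from -0.51 log2 units per unit for prp-8 to 0.27 for hrpa-1. It was below 0 in 18 of 35 genes (51.4%), against 35.9% of all genes. Negative slopes were found for all 3 branch and intron end genes, 5 of the 7 rnp genes, 4 of the 6 prp genes, 3 of the 7 Sm genes and 3 of the 12 regulators. The slopes are descriptions over 6 arrays and were not tested, and the genes share those arrays.

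Probe sets of the same gene could follow this axis in opposite directions. In 7 of the 12 genes with several probe sets the brightest had a positive slope and another a negative one, and in 2, etr-1 and rnp-6, the brightest had a negative slope and another a positive one. The slope of the within-array difference, other set minus brightest, was below 0 in 10 of the 15 pairs (66.7%), against 70.0% of all 3648 pairs, so these genes were close to the rest of the array in this. For hrpa-1, an hnRNP A family gene, the brighter set read 11.74, 11.52 and 11.75 in tdp-1(ok803), against 11.34, 11.85 and 11.39 in wild type. The dimmer set read 8.57, 9.04 and 8.05 in the mutant and 9.22, 8.47 and 9.16 in wild type. The arrays that were high on one set were low on the other, with slopes of 0.27 and -0.56, and the genotype differences were 0.14 and -0.40, neither called. For snr-2 the slopes were 0.13 and -0.67 and the genotype differences 0.11 and -0.35. For rnp-5 the slopes were 0.13 and -0.50.

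**Figure D4:**
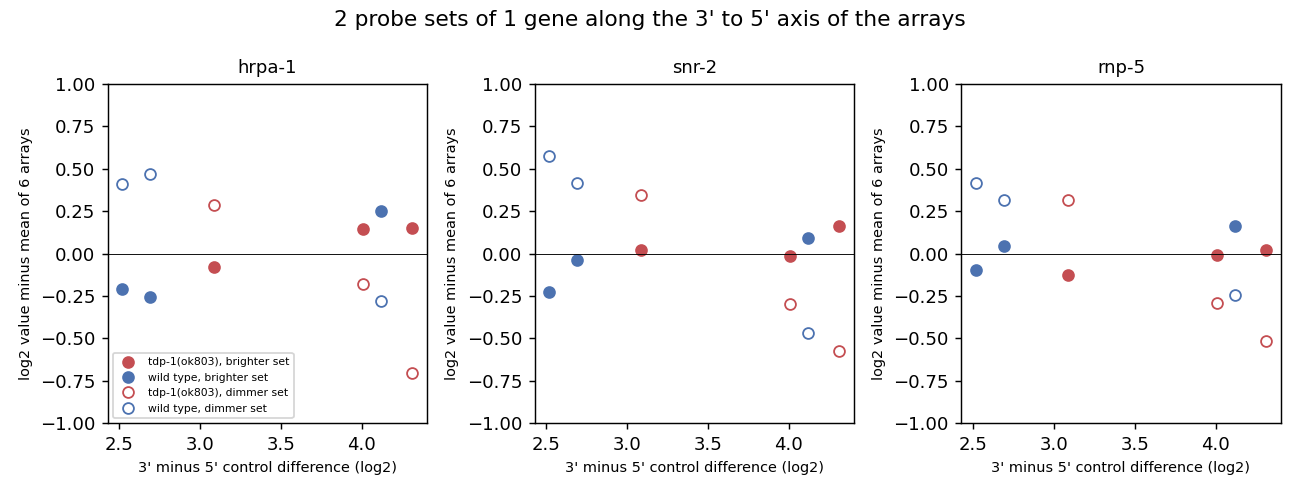
Log2 value minus its mean over the 6 arrays for the brighter (filled) and dimmer (open) probe set of hrpa-1, snr-2 and rnp-5, against the 3' minus 5' control difference of each array, with tdp-1(ok803) in red and wild type in blue. The dimmer sets are lower on the 3 arrays with a control difference above 4, which hold both genotypes.

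Markers of tissues in which the regulators are known to act were read beside them. Each marker list is given as its mean over genes centred on their own means, and every marker named on a list had a value unless stated. The 13 neuron markers ran from -0.21 to -0.012 in the mutant and from -0.011 to 0.22 in wild type, and the 10 hypodermis markers from -0.52 to -0.15 in the mutant and from -0.12 to 0.61 in wild type. In both lists the mutant arrays were the lower ones without overlap, though by a very small margin for the neuron list. The 10 muscle markers ran from -0.23 to -0.14 in the mutant and from -0.25 to 0.43 in wild type, with overlap. Germline markers (18) ran from -0.22 to 0.22 in the mutant and from -0.12 to 0.12 in wild type. Intestine (10), embryo (10) and sperm markers (9 of 10 measured) overlapped as well. No marker in these lists was called, with a smallest limma adjusted p of 0.0603. Their part in the values of etr-1 and ptb-1 was not tested. In whole worms, fewer cells of a type and less RNA per cell cannot be told apart. At fixed genotype, all 10 hypodermis markers fell as the control difference of the arrays rose, as did 6 of the 10 muscle markers. Of the 13 neuron markers, 6 did so. Median differences without and with the covariate were -0.48 and -0.28 for hypodermis, -0.35 and -0.18 for muscle, and -0.26 and -0.20 for neuron markers. The part of labelling and of the mix of stages in these marker values was not tested.

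Other genes of the pathway also gave 0 calls. Of 68 further spliceosome genes 60 were measured, with a median difference of -0.01, 27 higher and 33 lower in the mutant, and 0 called (smallest limma adjusted p = 0.598). An unadjusted p under 0.05 was found for 1 of them, snu-23, whose product belongs to the U4/U6.U5 particle. It read 9.480, 9.482 and 9.996 in tdp-1(ok803), against 9.129, 9.137 and 9.274 in wild type, lying apart by 0.47 ± 0.16 (limma adjusted p = 0.598). The next highest was smi-1, of the complex that loads Sm rings, at 0.35, and the lowest were emb-4, an intron-binding helicase gene, at -0.36 and cdc-5L at -0.35. Of 15 other RNA regulators 13 were measured, with a median of 0.031 and 0 called (smallest limma adjusted p = 0.64). The hnRNP gene hrpr-1 read 10.53, 10.61 and 10.88 in the mutant and 10.42, 10.34 and 10.18 in wild type, a difference of 0.36 ± 0.14 and the 1 of 13 with an unadjusted p under 0.05. The germline translational regulator gene gld-1 differed by 0.30, sqd-1 by -0.29 and hrpu-1 by -0.16.

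The absence of calls held under 15 of the 16 other settings tried. Those 15 called between 0% and 0.838% of all probe sets or gene means, so a list of 35 would hold few calls at those rates. The exception was limma's default (REML) array weights, whose estimate stopped before converging and gave mutant replicate 1 a weight of 4.16 and wild-type replicate 1 a weight of 7.91, all others being below 0.55. That fit called 11 of the 35 genes (31.4%), and 27.9% of all probe sets. Fitted in the same way to the pairs of probe sets, with their own weights, it called 11 of the 15 pairs (73.3%), against 49.4% of all pairs. The 2 arrays with high weights in the fit of probe sets are 1 of each genotype, and the members' share in that fit was close to the share of all probe sets.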

How the data were processed

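Total RNA was labelled with biotin for 3' expression arrays, per the labels' protocols. The authors deposited log2 values, with 1 value for each probe set on each array. The submitters' processing notes name RMA, a method of background correction, normalization and probe summary, and Partek, both without versions. Further settings of that step were not given in the sources used here. Array medians lay between 5.41 and 5.52, and array profiles correlated at 0.973 to 0.993.

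After 77 control probe sets were set aside, the other 22548 were tested (two-sided) with lmFit and eBayes of limma 3.58.1, run under R 4.3.3. Genotype was the single term, and p-values were adjusted by Benjamini-Hochberg over all probe sets at a threshold of 0.05. The code was first tested on simulated data. A single symbol was listed for 20766 probe sets and several for 887, while 895 had no entry. Gene IDs were looked up in the WBcel235 gene table, where 65 of the 20766 found no match. The number of arrays limits the precision.

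Members and lists were chosen with earlier results of these data known. Array values are given for tdp-1, for members with an unadjusted p under 0.05 or without overlap, for the 2 highest and 2 lowest differences, and for the brightest and dimmest gene. From the other gene lists the 2 highest and 2 lowest are named. The probe set pairs of etr-1, exc-7, hrpa-1, snr-2 and rnp-5 were singled out after their values were seen.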

Additional observations from a re-analysis of the deposited data

How the results depend on the processing

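The count of splicing factor genes called was 0 with trend and robust moderation, an unmoderated model, quantile normalization, equal array medians, dim probe sets left out, a replicate block, the 3' minus 5' covariate, the mean of all probe sets of a gene and each array left out. It was 0 with gene-by-gene array weights too, which were chosen after seeing the data and called 0.838% of all probe sets. The fits named before that one called between 0% (unmoderated model) and 0.43% (without wild-type replicate 2) of all probe sets or gene means. At such rates a list of 35 would hold few calls. REML array weights called 27.9% of all probe sets, among them 11 of the 35 members and 28 of the 73 other pathway genes. The reported fit called 0 of either. With weights estimated on the pairs, the REML fit called 11 of the 15 pairs of probe sets, against 49.4% of all pairs. At an unadjusted p under 0.05 there were 5 members in the unmoderated model, 19 with REML and 3 with gene-by-gene weights. There were 2 with the covariate (against 1865 of all 17118 genes) and 2 with the mean of probe sets. There were 0 with the replicate block, and 0 to 2 with an array left out. Apart from the covariate fit, the share of all genes at this threshold is not given for these settings. The counts are therefore not read as a trait of the members. Genes with genotypes apart numbered 6 to 14 with an array left out, while 17.7% to 33.4% of all genes were apart in those designs. With an array left out, fewer values are there to overlap, so these counts and shares cannot be set against those of all 6 arrays. What else moved them was not tested. The median difference ran from -0.03 to 0.076 with an array left out, and was -0.06 with REML and -0.027 with gene-by-gene weights. With the mean of all probe sets of a gene it was -0.054, and 13 of the 35 genes were higher in the mutant. Over 16 settings, 53 of 560 single-gene values had the other sign, none of them called. Deviations of same-numbered arrays from their genotype means correlated at 0.05, -0.61 and -0.46. The highest correlation, 0.60, was that of mutant replicate 3 with wild-type replicate 2. Deviations from a mean of 3 arrays sum to 0, so these values cannot show or exclude shared handling of same-numbered samples. The numbers are used here as names.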
